A study of Mus musculus with 6 samples.

Results

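Interferon-stimulated genes and the type I interferon gene Ifnk were followed across 6 Illumina bead arrays of primary mouse hepatocytes, the main parenchymal cells of the liver. The 39 genes were chosen by symbol from a list, with earlier results of these data known. Their probes were found through the array's annotation. The list holds 1 interferon gene (Ifnk), 3 receptor genes, 5 transcription factors, 20 effector genes grouped here with type I interferon and 10 grouped with type II interferon, out of 16590 named genes on the array. At least 1 probe carried the name of 37 of the 39 genes, and no probe used here was named Gbp6 or Ifi44.

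The donors were 10 week old male mice, wildtype, with a C57Bl6/J background. The hepatocytes were treated with the vehicle DMSO, KD3010 or GW1516, and no group was without vehicle or agonist. Both compounds activate PPAR-delta, a lipid-sensing transcription factor of the nuclear receptor family that drives fatty acid oxidation. Each of the 3 groups holds 2 arrays that the labels call technical replicates, named here A and B as in the deposited columns. All p-values and errors therefore measure the spread between arrays, not between cultures or animals. The labels state no dose and no duration of treatment, so KD3010 and GW1516 cannot be set against each other at a matched dose. Both agonists were compared with the same 2 DMSO arrays.

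As background, interferons are secreted proteins that put cells into an antiviral state. Type I interferons bind the receptor made of Ifnar1 and Ifnar2, which acts through a complex that contains Stat2 and Irf9 on promoter elements called ISREs. Type II interferon, the product of Ifng, binds the receptor made of Ifngr1 and Ifngr2 and acts on elements called GAS. Many genes answer to both, so the grouping into type I and type II effectors is one of emphasis. Hepatocytes carry both receptors and are a major site of interferon-stimulated gene expression in the infected liver.

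RefSeq promoters (GRCm38.p6, 250 bases before to 50 bases after the gene's start) matched 31 of the 39 genes. The ISRE core, searched on both strands as TTTC, any 2 bases and again TTTC, occurred in 15 of the 31 (48.4%), against 3.99% of 27025 genes in the same table. Among type I effectors it occurred in 9 of 15 (60.0%), and among type II effectors in 4 of 7 (57.1%). The GAS motif, searched as TTCNNNGAA, which reads the same on both strands, occurred in 11 of 31 (35.5%), against 9.55% of all genes. It occurred in 5 of 15 type I effectors (33.3%) and in 2 of 7 type II effectors (28.6%). Neither motif overlaps the other in the windows shown. The windows of Ifnk, of a pair of type I effectors and of a pair of type II effectors are shown because they contrast the ligand, without a match in its window, with effectors that have one. Each is 100 bases of the gene's own strand, 5′ to 3′, with ISRE core and GAS matches in capitals; adjoining ISRE cores run together.
Ifnk, chr4:35151955-35152054, plus strand: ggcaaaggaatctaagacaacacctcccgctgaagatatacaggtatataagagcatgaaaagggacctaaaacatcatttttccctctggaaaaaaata
Ifit3, chr19:34583364-34583463, plus strand: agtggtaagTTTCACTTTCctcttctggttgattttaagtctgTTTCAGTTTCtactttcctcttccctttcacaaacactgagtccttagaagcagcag
Isg15, chr4:156200824-156200923, minus strand: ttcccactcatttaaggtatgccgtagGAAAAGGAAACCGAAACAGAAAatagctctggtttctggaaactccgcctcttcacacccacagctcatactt
Gbp3, chr3:142559944-142560043, plus strand: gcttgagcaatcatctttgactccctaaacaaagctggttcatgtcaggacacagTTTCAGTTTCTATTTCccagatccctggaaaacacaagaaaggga
Igtp, chr11:58199456-58199555, plus strand: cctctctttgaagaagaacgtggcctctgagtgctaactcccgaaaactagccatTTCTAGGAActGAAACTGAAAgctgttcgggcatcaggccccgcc

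Isg15 had 3 ISRE cores in its window, Ifit3 and Gbp3 had 2 each, and Igtp had 1 beside its GAS match. A match is a description of letters and not a measured binding site, and the absence of a match says only that these letters are not in the window.

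Most of the listed genes were detected without any agonist. A probe counts as detected in a group when its deposited detection p-value, which compares it with the array's negative control beads, is below 0.05 on both arrays. By that rule 33 of the 37 genes with a probe were detected with DMSO, 29 with KD3010 and 32 with GW1516. Of all 25697 probes, 10550 and 10542 were detected on the DMSO arrays, 10239 and 10380 on the KD3010 arrays, and 10507 and 10805 on the GW1516 arrays. The KD3010 arrays thus detected the fewest probes of any kind. With KD3010 the 4 genes missing were Mx1, Oas2, Ifih1 and Gbp11, and with GW1516 only Mx1 was missing. Both receptors and all 5 transcription factors with a detected probe were detected in all 3 groups, as were 14 type I and 7 type II effectors.

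The 4 genes below detection in every group were Ifnar1, a receptor subunit, Ifit1 and Oas3, effectors of the antiviral state, and Iigp1, an immunity-related GTPase. Their deposited intensities lay between 189.2 and 215.5 for Ifnar1, 199.9 and 239.4 for Ifit1, 248.4 and 286.2 for Oas3, and 192.8 and 268.4 for Iigp1. The lowest intensity called detected lay between 280.7 and 302.0 across the arrays. A probe below detection does not show that its transcript is absent, since probes differ in how well they bind.

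The 33 genes detected in at least 1 group are the ones tested. A level is the log2 of the background-corrected, quantile-normalized intensity of a gene's brightest detected probe, and it is compared only between arrays, never between genes. Differences are log2 differences from limma with standard errors (n = 2 arrays a group), with p-values adjusted by Benjamini-Hochberg over all 8058 tested features. A gene is called at an adjusted p below 0.05 and a difference of at least 1.5-fold. Of all tested features 0.124% were called between KD3010 and DMSO, 0.0869% between GW1516 and DMSO and 0% between KD3010 and GW1516. Of the 33 tested genes 1 was called with KD3010 (Ifnk), 0 with GW1516 and 0 between the agonists.

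Ifnk encodes interferon kappa, a type I interferon best known from skin keratinocytes. Its probe read 308.1 and 306.5 on the DMSO arrays, 395.5 and 438.3 on the KD3010 arrays, and 330.1 and 354.2 on the GW1516 arrays, as deposited intensity. Both KD3010 arrays were the highest of the 6, both DMSO arrays the lowest, and no groups overlapped. The DMSO readings were close to the detection limit, with detection p-values of 0.0401 and 0.0288, against 0 on both KD3010 arrays.

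**Figure D1:**
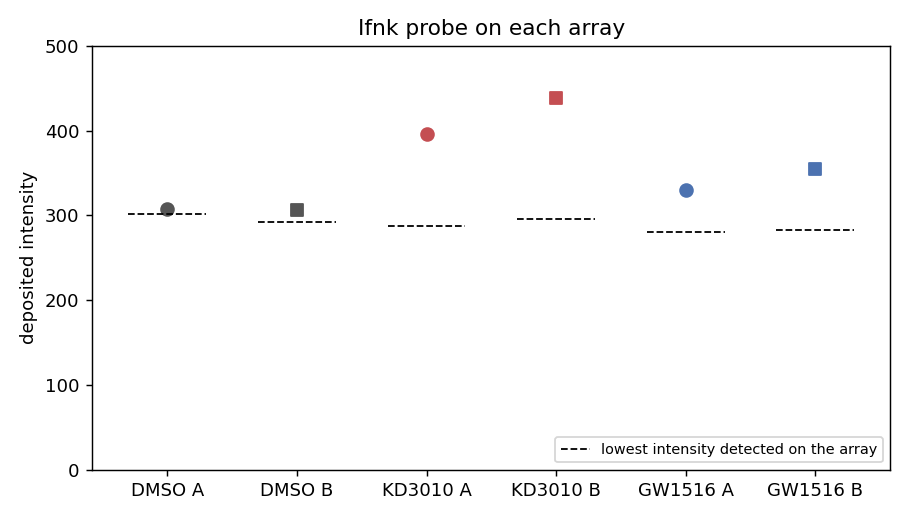
Deposited intensity of the Ifnk probe (vertical axis) on each of the 6 arrays, 1 point an array; the dashed line is the lowest intensity detected on that array. The DMSO points (308.1 and 306.5) sit just above the dashed lines and the KD3010 points (395.5 and 438.3) well above them.

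After background correction the Ifnk levels were 6.29 and 6.44 with DMSO, 7.63 and 7.77 with KD3010, and 7.04 and 7.07 with GW1516. Ifnk rose with KD3010 by 1.34 ± 0.16 on the log2 scale (95% interval 0.98 to 1.69), or 2.52-fold (limma adjusted p = 0.0148). With GW1516 the difference from DMSO was 0.69 ± 0.16, or 1.61-fold (adjusted p = 0.269), and KD3010 lay 0.64 ± 0.16 above GW1516, or 1.56-fold (adjusted p = 0.165). Neither of these was called.

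The size of the Ifnk difference depends on the background that is subtracted. Without background correction it was 1.40-fold (adjusted p = 0.0717), and in the authors' normalized values, which read 290.5 and 300.7 with DMSO and 416.4 and 434.9 with KD3010, it was 1.44-fold (adjusted p = 0.0405), which misses the required 1.5-fold. Leaving out 1 array ended the call each time. The adjusted p was 0.261 with array A of DMSO left out and 0.163 with array B. For KD3010 it was 0.133 with array A left out and 0.122 with array B, and for GW1516 it was 0.0612 and 0.0558. The fold lay between 2.38 and 2.67 in these fits.

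No other interferon gene reached detection in a group. The array carries 11 probes for 9 further interferon genes, among them Ifnb1, Ifng, Ifne and 4 genes of the interferon alpha family with a number in their name. Their intensities lay between 182.3 and 315.4 across all arrays, and 0 of the 9 genes were detected on both arrays of any group. The Ifnb1 probe read 213.9 and 217.9 with DMSO, 243.1 and 233.7 with KD3010, and 211.1 and 208.1 with GW1516, all below detection.

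Neither measurable receptor gene was called in any comparison. Ifnar2, the type I receptor subunit with the high affinity for ligand, was at 6.89 and 6.79 with DMSO, 6.68 and 6.97 with KD3010, and 6.93 and 6.88 with GW1516. Ifngr1, the ligand-binding subunit of the type II receptor, was at 9.72 and 9.81, 9.51 and 9.65, and 9.78 and 9.70 in the same order. The differences from DMSO were -0.02 ± 0.17 and 0.07 ± 0.17 for Ifnar2 with KD3010 and GW1516, and -0.18 ± 0.16 and -0.02 ± 0.16 for Ifngr1. Both KD3010 arrays of Ifngr1 lay below both DMSO arrays, while the DMSO and KD3010 groups of Ifnar2 overlapped. A second Ifnar2 probe gave -0.08 ± 0.18 for KD3010 and -0.39 ± 0.18 for GW1516 against DMSO (adjusted p = 0.541), with the GW1516 arrays below both DMSO arrays. The 2 probes differ in sign for GW1516.

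The transcription factors were measurable throughout, and 0 of 5 were called in any comparison. Irf7, which interferon induces and which in turn drives interferon alpha genes, was at 10.98 and 10.76 with DMSO, 11.19 and 11.43 with KD3010, and 11.33 and 11.26 with GW1516. All 4 agonist arrays lay above both DMSO arrays, with differences of 0.44 ± 0.17 for KD3010 (adjusted p = 0.368) and 0.43 ± 0.17 for GW1516 (adjusted p = 0.488).

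Stat2 and Irf9, members of the ISRE-binding complex, showed no such separation for KD3010. Stat2 was at 10.00 and 9.70 with DMSO, 9.90 and 9.29 with KD3010, and 9.92 and 9.61 with GW1516, with all 3 groups overlapping. Irf9 was at 11.40 and 11.23 with DMSO, 11.34 and 11.14 with KD3010, and 11.57 and 11.53 with GW1516. The GW1516 arrays were the highest for Irf9, by 0.23 ± 0.16 over DMSO (adjusted p = 0.696).

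Irf1, an activator of many interferon-induced genes, and Irf2, its antagonist at shared sites, differed from DMSO by no more than 0.29 on the log2 scale with either agonist. Irf1 was at 12.54 and 12.52 with DMSO, 12.58 and 12.25 with KD3010, and 12.34 and 12.33 with GW1516. Irf2 was at 12.96 and 12.77 with DMSO, 12.57 and 12.59 with KD3010, and 12.82 and 12.78 with GW1516. Both KD3010 arrays were the lowest for Irf2, at -0.29 ± 0.16 against DMSO (adjusted p = 0.522).

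**Figure D2:**
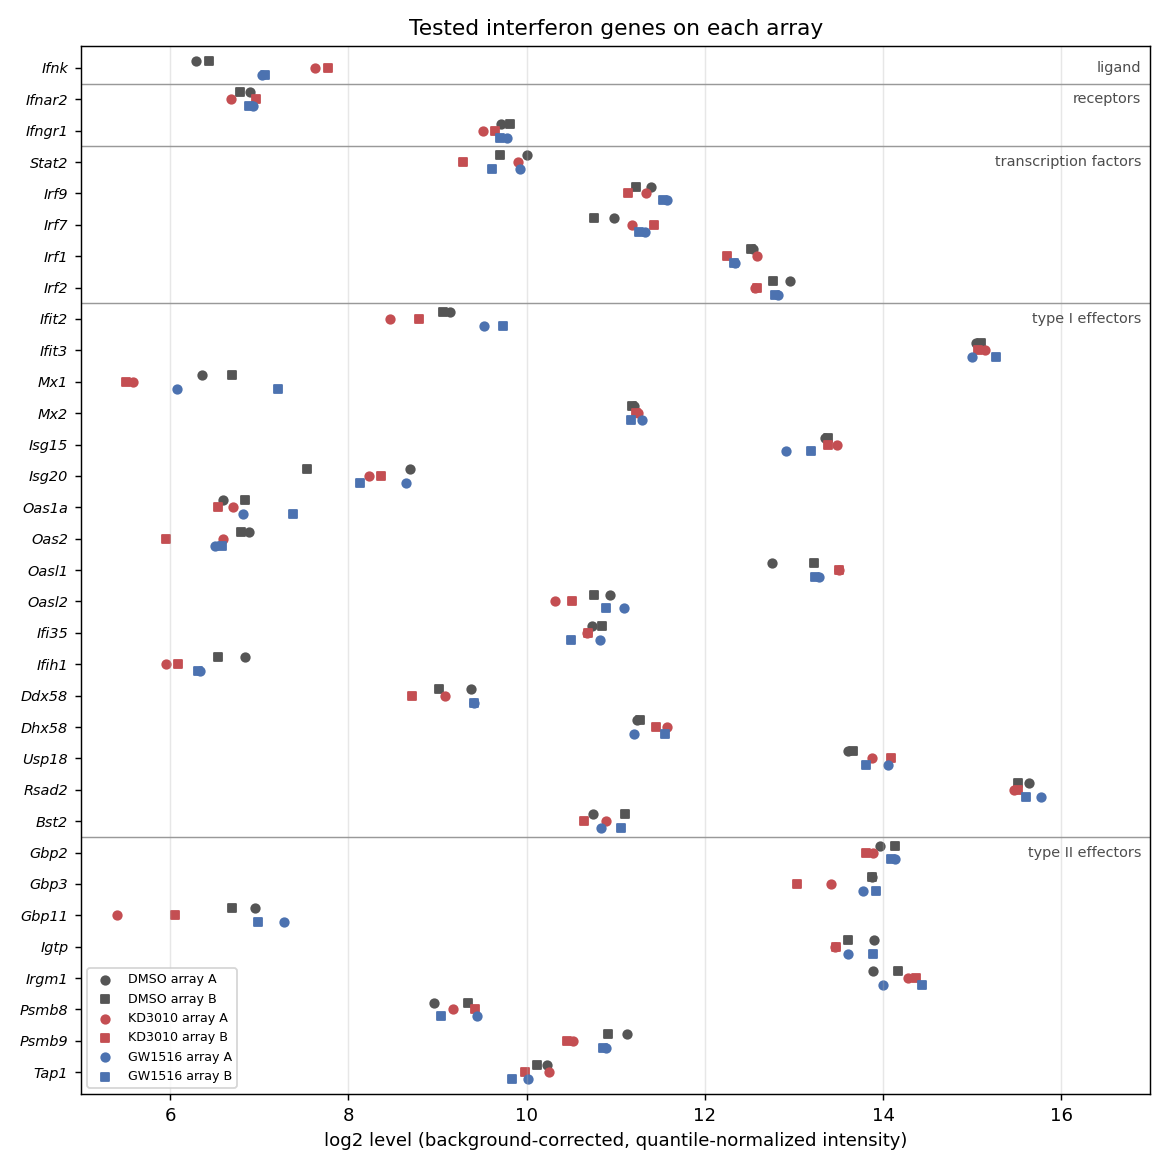
Log2 level (horizontal axis) of each of the 33 tested genes on the 6 arrays, colours marking the groups and symbols the arrays A and B; levels compare within a row only. Both KD3010 arrays lie apart from the other 4 for Ifnk, Gbp11 and Gbp3, and also for Ifit2, Oasl1, Oasl2, Psmb9, Irf2, Igtp and several more. Gbp11 was below detection on both KD3010 arrays.

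Among the type I effectors, Ifit2 separated all 3 groups. Ifit2 is an RNA-binding protein that restrains translation in infected cells. Its levels were 9.14 and 9.06 with DMSO, 8.46 and 8.80 with KD3010, and 9.52 and 9.74 with GW1516. Both KD3010 arrays lay below and both GW1516 arrays above the DMSO arrays, by -0.47 ± 0.18 (adjusted p = 0.363) and 0.53 ± 0.18 (adjusted p = 0.418).

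Directly compared, KD3010 differed from GW1516 in Ifit2 by -0.999 ± 0.18 on the log2 scale (adjusted p = 0.146), which did not pass the threshold. A second Ifit2 probe gave -0.81 ± 0.21 for KD3010 and 0.48 ± 0.21 for GW1516 against DMSO, and -1.29 ± 0.21 between the agonists. The 2 probes thus gave the same order of the groups. Of 18 alternative settings 5 called Ifit2 between the agonists. Among them were the authors' normalized values, with a log2 difference of -0.71 (adjusted p = 0.0102), and the same values with replicate numbers in the model. In these 5 settings 15 to 57 of all tested features were called, against 0 in the main fit.

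Ifit3, a partner of the Ifit1 protein, was at 15.05 and 15.09 with DMSO, 15.15 and 15.06 with KD3010, and 14.99 and 15.27 with GW1516 on its brightest probe. The groups overlapped, and the difference from DMSO was 0.03 ± 0.17 for KD3010. The other probes named Ifit3 gave -0.01 ± 0.20 and -0.45 ± 0.16 (adjusted p = 0.332), so the probes of this gene disagree in sign. Between KD3010 and GW1516 the brightest probe gave -0.03 ± 0.17, and the others -0.20 ± 0.20 and -0.69 ± 0.16 (limma adjusted p = 0.166). Ifit3 has a near-identical neighbour, Ifit3b, and the probes may not tell them apart.

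Mx1 and Mx2 encode dynamin-like GTPases, and laboratory strains such as C57BL/6 carry an Mx1 allele without functional protein. Mx1 was at 6.36 and 6.70 with DMSO, 5.58 and 5.51 with KD3010, and 6.08 and 7.21 with GW1516. It entered the tests only because both DMSO arrays were detected, it was below detection on both KD3010 arrays, and 1 of the 2 GW1516 arrays detected it. Against the detection floor its level with DMSO was at least 1.19-fold that with KD3010. Where a group is below detection on both arrays, such a bound replaces the fold. It holds only for this background correction and takes the mean of the brighter group without its error. The bound itself was not tested, and the limma difference of the measured Mx1 levels had an adjusted p of 0.281. Mx2 lay between 11.17 and 11.29 on all 6 arrays, with differences from DMSO of 0.04 ± 0.16 for both agonists.

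Differences in the oligoadenylate synthetase family had both signs. These enzymes make the messenger that activates RNase L, although Oasl1 and Oasl2 are relatives with other roles, Oasl1 being a translational inhibitor of Irf7 in mice. Oasl1 was at 12.76 and 13.22 with DMSO, 13.50 and 13.51 with KD3010, and 13.28 and 13.24 with GW1516. Both KD3010 arrays were the highest, by 0.51 ± 0.19 (adjusted p = 0.336). Of its 2 other probes 1 gave 0.56 ± 0.16 and the other -0.14 ± 0.20, so the sign was not shared.

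Oasl2 was at 10.94 and 10.76 with DMSO, 10.31 and 10.51 with KD3010, and 11.09 and 10.90 with GW1516. Both KD3010 arrays were the lowest, by -0.44 ± 0.17 against DMSO (adjusted p = 0.367) and -0.58 ± 0.17 against GW1516 (adjusted p = 0.216). A dimmer second probe gave -0.13 ± 0.16 for KD3010 against DMSO, but 0.12 ± 0.16 for KD3010 against GW1516 and -0.25 ± 0.16 for GW1516 against DMSO. The last 2 have the opposite sign to the brightest probe.

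Oas1a was at 6.59 and 6.84 with DMSO, 6.70 and 6.53 with KD3010, and 6.82 and 7.37 with GW1516. Its KD3010 arrays lay below both GW1516 arrays (-0.48 ± 0.21, adjusted p = 0.355) and overlapped the DMSO arrays. Oas2 was at 6.89 and 6.79 with DMSO, 6.60 and 5.95 with KD3010, and 6.50 and 6.58 with GW1516, with -0.56 ± 0.21 for KD3010 against DMSO (adjusted p = 0.360). It was detected on 1 of the 2 KD3010 arrays.

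The RNA sensors of the RIG-I family also differed among themselves. Ifih1 (MDA5), a sensor of long double-stranded RNA, was at 6.85 and 6.54 with DMSO, 5.96 and 6.09 with KD3010, and 6.33 and 6.31 with GW1516. It was below detection on both KD3010 arrays, and on this background-corrected scale its level with DMSO was at least 1.34-fold that with KD3010. This bound was not tested, and the limma difference of the measured levels had an adjusted p of 0.204. Over 16 alternative settings that log2 difference lay between -0.82 and -0.197, so the bound does not hold in every setting.

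Ddx58 (RIG-I), a sensor of viral RNA ends, was at 9.37 and 9.02 with DMSO, 9.09 and 8.72 with KD3010, and 9.41 on both GW1516 arrays. KD3010 lay at -0.51 ± 0.19 against GW1516 (adjusted p = 0.288), while its arrays overlapped those of DMSO. Dhx58 (LGP2), a regulator of both sensors, differed from DMSO by 0.26 ± 0.18 with KD3010 and 0.12 ± 0.18 with GW1516.

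The brightest type I effector probes were those of Rsad2, Ifit3 and Usp18. Rsad2 (viperin), which makes a chain-terminating nucleotide, was at 15.64 and 15.52 with DMSO, 15.47 and 15.51 with KD3010, and 15.77 and 15.61 with GW1516. Usp18, which removes Isg15 from proteins and dampens the type I receptor, was at 13.60 and 13.66 with DMSO, 13.88 and 14.09 with KD3010, and 14.05 and 13.80 with GW1516. All 4 agonist arrays lay above both DMSO arrays for Usp18, by 0.35 ± 0.17 (adjusted p = 0.445) and 0.30 ± 0.17 (adjusted p = 0.629), and all 3 of its probes gave differences above 0 for both agonists.

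Isg15, a ubiquitin-like modifier, was at 13.34 and 13.38 with DMSO, 13.48 and 13.38 with KD3010, and 12.91 and 13.19 with GW1516. The GW1516 arrays were the lowest here, and KD3010 lay 0.38 ± 0.17 above GW1516 (adjusted p = 0.352). The remaining type I effectors were Isg20, an exonuclease, Ifi35, and Bst2 (tetherin), which holds virus at the cell surface. Their differences from DMSO lay between -0.15 and 0.27 over both agonists. The DMSO arrays of Isg20 were 8.69 and 7.54, a gap that exceeds every difference of that gene between groups.

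Among the type II effectors, the guanylate-binding protein genes Gbp3 and Gbp11 were lowest on both KD3010 arrays. Guanylate-binding proteins are GTPases that attack the vacuoles of intracellular microbes. Gbp3 was at 13.88 and 13.87 with DMSO, 13.42 and 13.03 with KD3010, and 13.78 and 13.92 with GW1516. The KD3010 arrays lay below the other 4, by -0.65 ± 0.18 against DMSO (adjusted p = 0.239) and -0.63 ± 0.18 against GW1516 (adjusted p = 0.209).

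A second Gbp3 probe gave -0.55 ± 0.18 for KD3010 against DMSO and -0.05 ± 0.18 for GW1516 against DMSO. Gbp3 was called between KD3010 and DMSO in 4 of 18 alternative settings. Among them were the authors' normalized values, with a log2 difference of -0.64 (adjusted p = 0.0399), and the same values with replicate numbers in the model. In these 4 settings 29 to 49 of all tested features were called, against 10 in the main fit. The Gbp3 difference from DMSO stayed below 0 in all 18, between -0.84 and -0.46. Between KD3010 and GW1516 Gbp3 was called in 4 of 18, where 37 to 57 of all tested features were, against 0 in the main fit.

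Gbp11 was at 6.96 and 6.69 with DMSO, 5.41 and 6.06 with KD3010, and 7.28 and 6.98 with GW1516. It passed the filter through DMSO and GW1516, since neither KD3010 array detected it. On this background-corrected scale its level with DMSO was at least 1.46-fold that with KD3010, and its level with GW1516 at least 1.81-fold. These bounds were not tested. Over 17 alternative settings the measured log2 difference of KD3010 lay between -1.42 and -0.335 against DMSO and between -1.73 and -0.443 against GW1516. The bounds thus do not hold in every setting. The limma differences of the measured levels had an adjusted p of 0.148 and 0.146 in the same order, and neither was called. Of the 17 settings 3 called Gbp11 between the agonists. These were a background correction offset of 50, a detection p below 0.01, and a trended and robust variance. In them 15, 7 and 57 of all tested features were called, against 0 in the main fit.

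Gbp2 was at 13.96 and 14.13 with DMSO, 13.89 and 13.81 with KD3010, and 14.13 and 14.09 with GW1516. Its KD3010 arrays were the lowest by a small margin (-0.20 ± 0.16), and its dim second probe gave 0.04 ± 0.24. The immunity-related GTPase genes, which act on microbial vacuoles too, had differences of opposite sign. Igtp was at 13.89 and 13.61 with DMSO, 13.47 and 13.47 with KD3010, and 13.61 and 13.88 with GW1516 (-0.28 ± 0.18 for KD3010 against DMSO). Irgm1, which protects host membranes from the other GTPases, was at 13.88 and 14.17 with DMSO, 14.28 and 14.37 with KD3010, and 14.00 and 14.43 with GW1516 (0.30 ± 0.19). Neither of the 2 passed the test.

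Psmb9, a subunit of the immunoproteasome that shapes peptides for antigen presentation, was at 11.13 and 10.91 with DMSO, 10.52 and 10.45 with KD3010, and 10.89 and 10.86 with GW1516. Both KD3010 arrays were the lowest, by -0.54 ± 0.16 against DMSO (adjusted p = 0.257). Psmb8, another subunit of the same particle, differed by 0.15 ± 0.21, with overlapping arrays. Tap1, a subunit of the transporter that carries those peptides, differed by -0.06 ± 0.17 with KD3010 and -0.25 ± 0.17 with GW1516.

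**Figure D3:**
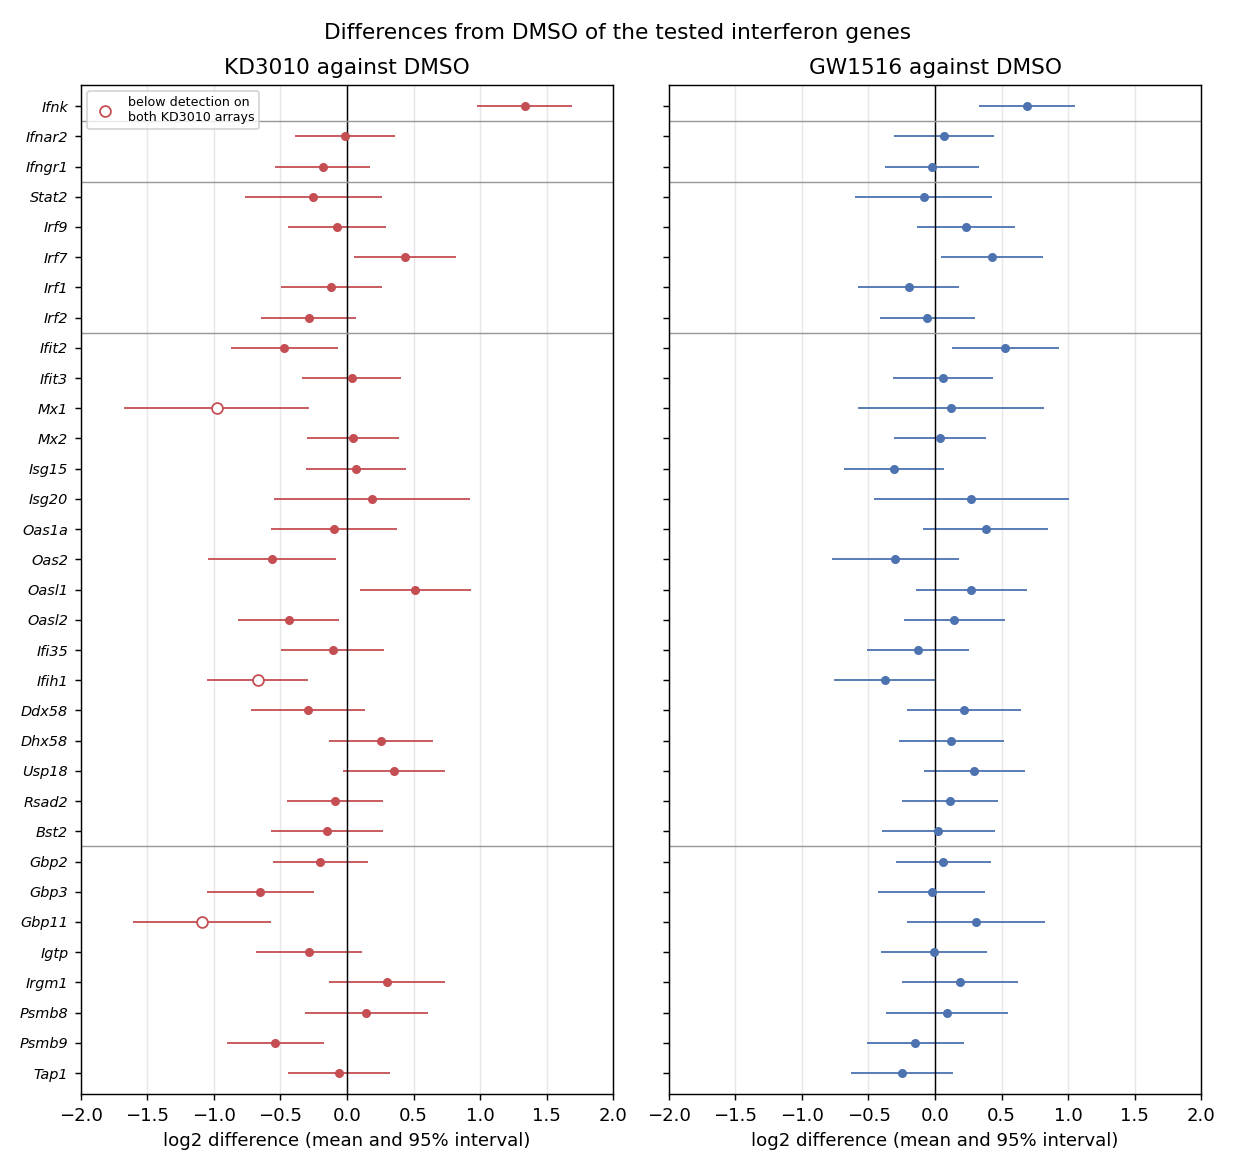
Log2 difference from DMSO (horizontal axis) of the 33 tested genes with KD3010 (left) and GW1516 (right), points showing the estimate and bars the 95% interval; both panels use the same DMSO arrays. With KD3010 Ifnk stands at 1.34. Open circles mark Mx1, Ifih1 and Gbp11, which were below detection on both KD3010 arrays. Their size is given only by the bounds in the text, which hold for this background correction.

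Counts at an unadjusted p below 0.05 are set beside those of the array as a whole. The genes were chosen with earlier results of these data known, so the array's share is not an independent yardstick. With KD3010 3 of the 33 tested genes were higher (Ifnk, Irf7 and Oasl1), where 5.44% of all tested features were. A further 8 were lower (Ifit2, Mx1, Oas2, Oasl2, Ifih1, Gbp3, Gbp11 and Psmb9), where 6.76% of all features were, but 4 of the 8 entered the tests without detection in the KD3010 group. Of the 29 genes detected in all groups 4 were lower, against 419 of 7120 features detected in all groups.

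With GW1516 3 of 33 were higher than DMSO (Ifnk, Irf7 and Ifit2) and 0 lower, where 4.69% and 4.83% of all features were. Between KD3010 and GW1516 2 were higher with KD3010 (Ifnk and Isg15) and 8 lower (Ifit2, Mx1, Oas1a, Oasl2, Ddx58, Gbp3, Gbp11 and Psmb9), against 6.14% and 7.78% of all features. Of the 29 detected in all groups 6 were lower, against 484 of 7120 features.

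The families were also followed array by array. On KD3010 arrays A and B, 5 and 6 of the 8 tested type II effectors lay below the DMSO mean, and 10 and 11 of the 17 type I effectors. Of all 8058 tested features 3991 and 4057 lay below it. The effector counts hold Mx1, Oas2, Ifih1 and Gbp11, which passed the filter without detection in the KD3010 group. Among the type II genes Irgm1 and Psmb8 lay above the DMSO mean on both KD3010 arrays. Relative to the mean of the DMSO arrays, the median of the 8 tested type II effectors was -0.22 on KD3010 array A and -0.26 on array B, and -0.06 and 0.05 on the GW1516 arrays. Over the 7 detected in all groups it was -0.16 and -0.24 with KD3010. In the authors' normalized values the KD3010 medians were -0.20 and -0.23. The DMSO arrays themselves stood at 0.03 and -0.03.

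The median of the 17 tested type I effectors was -0.03 and -0.11 on the KD3010 arrays and 0.10 and 0.13 on the GW1516 arrays, with the DMSO arrays at -0.02 and 0.02. Over the 14 detected in all groups the KD3010 medians were 0.02 and -0.04, on either side of 0, and the GW1516 medians 0.15 on both arrays. In the authors' normalized values the type I medians were -0.02 and -0.10 with KD3010 and 0.04 and 0.12 with GW1516. A difference between the families was not tested.

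**Figure D4:**
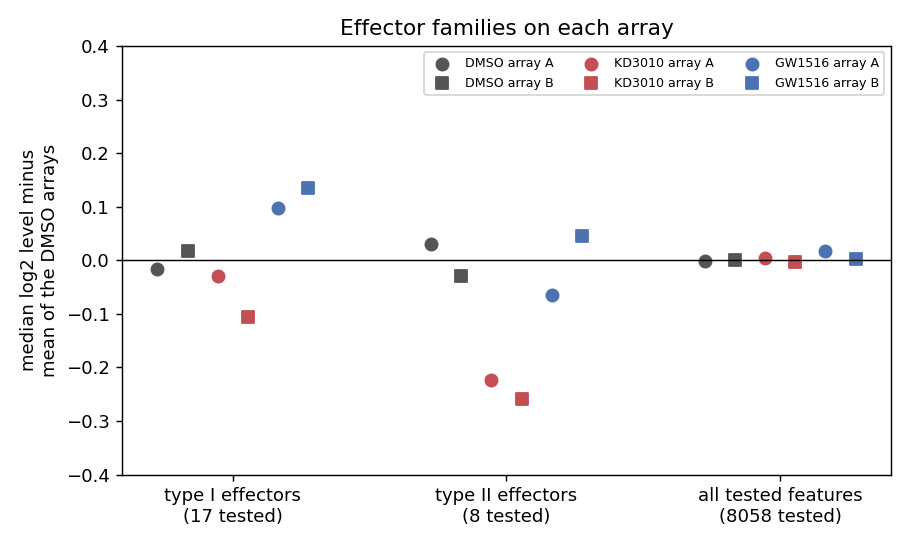
Median log2 level relative to the mean of the DMSO arrays (vertical axis) of the tested type I effectors, type II effectors and all tested features on each of the 6 arrays, 1 point an array. The KD3010 points lie at -0.22 and -0.26 for type II effectors and at -0.03 and -0.11 for type I effectors, while all features stay close to 0.

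By gene, 6 of the 8 tested type II effectors were lower with KD3010 than with DMSO, at a median of -0.24, and 10 of the 17 type I effectors were, at a median of -0.10. These counts hold the 4 genes not detected with KD3010. Among genes detected in all groups, 5 of 7 type II effectors were lower, at a median of -0.20, and 7 of 14 type I effectors (50%), at a median of -0.03. Of all tested features 50.2% were lower, at a median of -0.001. With GW1516 4 of the 8 type II effectors were lower, at a median of 0.03, and 4 of the 17 type I effectors, at a median of 0.12, against 49.4% of all features at a median of 0.004. Dividing each array by its median in place of quantile normalization shifted the median of all features by -0.12 with KD3010 and -0.09 with GW1516. On that scale the type II median with GW1516 was -0.07 and the type I median 0.0155, against -0.09 for all features. The sign of the type II median against 0 thus depends on the scaling. Both family medians with GW1516 lay above the median of all features on either scale. In the authors' normalized values the type I median with GW1516 was 0.0543.

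Several probes of a gene did not always share a direction. Of the 11 tested genes with more than 1 detected probe, all probes had the same sign between KD3010 and DMSO in 5, and they differed in Gbp2, Ifit3, Irf1, Irf9, Irgm1 and Oasl1. Ifit2 and Gbp3 were among the 5 with shared sign.

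**Figure D5:**
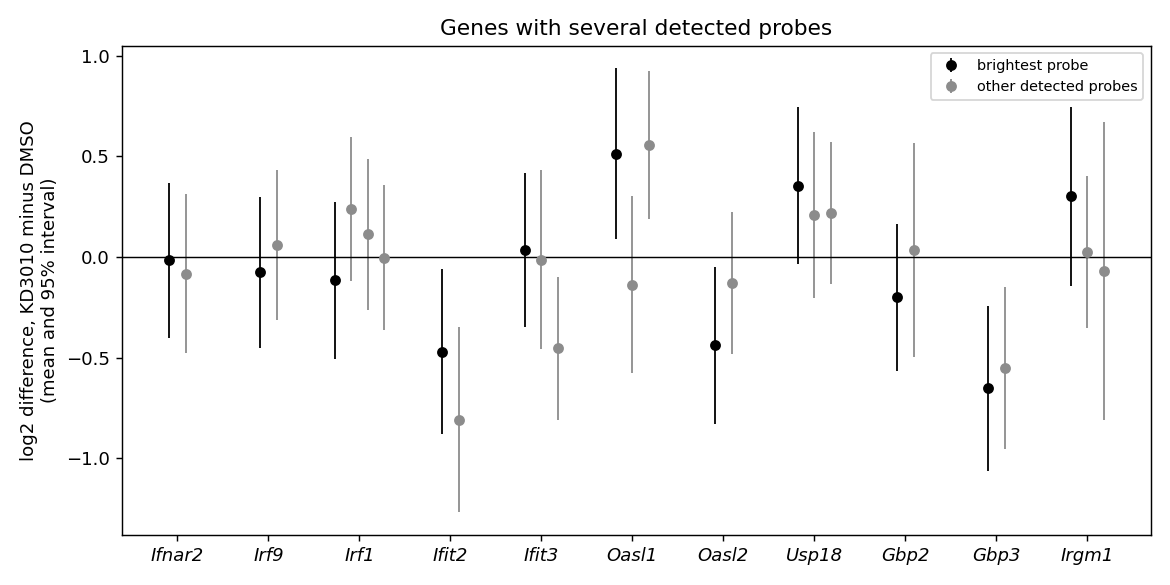
Log2 difference between KD3010 and DMSO (vertical axis, estimate and 95% interval) for every detected probe of the 11 tested genes with several, the brightest probe in black. Both probes of Ifit2 and of Gbp3 lie below 0, while the probes of Oasl1 lie on both sides of it.

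A further list of 97 interferon pathway genes, chosen by function and also with earlier results known, had 83 members on the array and 54 tested. None was called in any comparison, where at most 0.124% of all tested features were. At an unadjusted p below 0.05, 0 of the 54 were higher and 4 lower with KD3010 than with DMSO (Gvin1, Gbp5, Jak1 and Tbk1). Of all tested features 5.44% were higher and 6.76% lower. With GW1516 4 were higher (H2-Ab1, Cd74, Parp14 and Il10rb) and 0 lower, against 4.69% and 4.83% of all features. Between the agonists 1 was higher with KD3010 (Ifi30) and 5 lower (Gbp5, H2-Ab1, Ikbke, Tbk1 and Jak1), against 6.14% and 7.78%. The list's medians were 0.01 with KD3010 and 0.06 with GW1516 against DMSO.

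Gbp5, another guanylate-binding protein, was at 7.05 and 7.22 with DMSO, 6.89 and 6.47 with KD3010, and 7.42 and 7.41 with GW1516. Its KD3010 arrays were the lowest, at -0.46 ± 0.18 against DMSO (adjusted p = 0.379) and -0.74 ± 0.18 against GW1516 (adjusted p = 0.165). Gbp7 of the same family was at 8.73 and 8.31 with DMSO, 8.46 and 8.50 with KD3010, and 8.88 and 8.70 with GW1516, and differed from DMSO by -0.04 ± 0.19 with KD3010. Its KD3010 arrays lay between the DMSO arrays. Jak1, a kinase of both interferon receptors, differed from DMSO by -0.49 ± 0.20 with KD3010 (adjusted p = 0.381), and Tbk1, a kinase that activates interferon regulatory factors, by -0.37 ± 0.16 (adjusted p = 0.409). Cd74, the invariant chain of MHC class II, was at 9.19 and 8.30 with DMSO and at 9.49 and 9.42 with GW1516, so the gap between the DMSO arrays was wider than the distance of GW1516 from the nearer one.

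On the arrays as a whole, 10239 to 10805 of 25697 probes were detected, at a mean intensity of 953.2 to 1157. Of 10 hepatocyte markers 7 were detected on all arrays, among them Ttr, Apoa1 and Ahsg, while the probes named Alb, Fgb and Tat were detected on none. Of the markers with a probe, 0 of 8 for Kupffer cells or macrophages and 0 of 9 for lymphocytes were detected on all arrays. The summed intensities of these undetected lymphocyte probes were 2289 to 2291 with DMSO, 2289 to 2296 with KD3010 and 2379 to 2391 with GW1516, and those of the Kupffer cell list were 2658 to 2723, 2645 to 2667 and 2602 to 2689. For plasmacytoid dendritic cells, which are strong producers of interferon, the probes of Siglech, Ccr9, Cox6a2 and Klk1 were detected on no array, and the remaining 2 of the list's 6, Tcf4 and the listed gene Bst2, on all.

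Of 7 sinusoidal endothelial markers 4 were detected on all arrays. The probes of Kdr and Stab2 were detected on no array. The summed intensity over all 7 was 2987 to 3181 with DMSO, 2866 to 2912 with KD3010 and 2983 to 3056 with GW1516. The KD3010 sums were the lowest. For 7 stellate markers, 2 of them detected on all arrays, the sums were 6841 to 7216, 6565 to 7240 and 6590 to 7194, which overlap. The part of endothelial RNA in the interferon genes' differences was not tested. In RNA from a whole culture, fewer cells of a type and less RNA per cell cannot be told apart.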

How the data were processed

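Biotin-labelled cRNA from 6 samples was hybridised to Illumina mouse bead arrays, per the labels' protocols. The deposited tables hold bead-averaged intensities, not normalized, with a detection p-value per probe, per the file headers. A second deposited table holds the authors' normalized intensity values, which equal the values of the series matrix (largest difference 0), and this tied columns A and B to technical replicates 1 and 2. The submitters' processing notes name GenomeStudio, and the authors' normalization method was not given in the sources used here. The number of deposited columns not used was 31 (bead numbers, bead errors, repeated detection values and 1 column without a name).

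Intensities were background-corrected with normexp from the detection p-values (offset 16), quantile-normalized with limma 3.58.1 (R 4.3.3) and then log2-transformed. The detection filter (p below 0.05 for both arrays in any group) kept 10530 of 25697 probes. Probes were named through the platform annotation, 23978 of them. The brightest kept probe per gene left 8058 features, 7457 named genes and 601 unnamed probes. A linear model over all 6 arrays (3 residual and 6.54 prior degrees of freedom) was fitted with lmFit and eBayes and checked on simulated data. Calls required an adjusted p below 0.05 (Benjamini-Hochberg over all 8058 features) together with a 1.5-fold difference. A group below detection on both arrays has only a bound: the brighter group's mean over the higher, per array, of the lowest detected level and the probe's own. The 2 arrays a group limit the precision.

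The 39 genes, their roles and all other lists were chosen with earlier results of these data known. All 39 were accounted for, and levels on every array were given for those with an unadjusted p below 0.05 in a comparison, the ligand, receptors, transcription factors and the brightest effectors. Gbp5, Gbp7 and Cd74 were chosen for their values on every array after their values were seen. Alternatives changed the background correction, normalization, filter, probe choice, variance model and arrays in the fit. Within groups arrays correlated at 0.991, 0.990 and 0.989 for DMSO, KD3010 and GW1516.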

Additional observations from a re-analysis of the deposited data

How the results depend on the processing

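The call of Ifnk between KD3010 and DMSO was lost in 10 of 18 alternatives, and its direction in 0. Gbp3 was called in its place without background correction and in the authors' values, with or without replicate numbers in the model. Of the tested genes, the number called between KD3010 and DMSO was 1, became 2 with a trended and robust variance and 0 with only the arrays of both groups, and leaving out an array gave 0 to 0. Between KD3010 and GW1516 it was 0 and became 2 without background correction, with an offset of 50 and with the authors' normalized values, 1 at a detection p below 0.01 and 3 with a trended variance. With GW1516 against DMSO it was 0 in all 18.

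Over all features, 10 were called between KD3010 and DMSO, against 29 without background correction, 24 with the offset of 50, 32 in the authors' values, 6 without a filter, 16 with detection on all 6 arrays, 23 at a detection p below 0.01, 49 with the trended variance, 1 with only the arrays of both groups, and 0 to 6 with an array left out. Between GW1516 and DMSO the 7 became 2 with median scaling, 12 in the authors' values, 2 without a filter, 17 with the trended variance and 0 to 4 with an array left out. Between the agonists 0 became 37, 15, 39, 5, 7 and 57 without background correction, with the offset of 50, in the authors' values, with detection on all 6 arrays, at a detection p below 0.01 and with the trended variance. The causes were not tested.

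The type I median with KD3010 (-0.0967) was -0.1854 with median scaling and -0.0275 with detection on all 6 arrays or at a detection p below 0.01, and -0.1189 to -0.0304 with an array left out. With GW1516 (0.1177) it was 0.0155 with median scaling, 0.0543 in the authors' values and 0.0469 to 0.1351 with an array left out. Between the agonists (-0.1774) it was -0.0762 without background correction, -0.0845 in the authors' values, -0.0885 without a filter, -0.0577 with detection on all 6 arrays or at a detection p below 0.01, and -0.1956 to -0.0565 with an array left out. The type II median with KD3010 (-0.2416) was -0.3149 with median scaling and -0.1825 after averaging the probes of each gene. With GW1516 (0.0282) it was -0.0712 with median scaling and -0.0652 to 0.0601 with an array left out, and it kept its sign in 13 of 18 alternatives. Between the agonists (-0.2699) it was -0.3138 to -0.2105 with an array left out. The values with median scaling include a shift of all features, whose median on that scale was -0.1207 with KD3010 and -0.0918 with GW1516 against DMSO.

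Same-numbered arrays showed no broad shared deviation in any pair of groups (r = -0.018, -0.006 and 0.016). These correlations cannot settle how the replicates were prepared. With the array letter as a replicate block, 3 features were called between GW1516 and DMSO. The block on the series matrix values, an alternative chosen after seeing the data, called 38, 20 and 45 features in the order KD3010 and GW1516 against DMSO and KD3010 against GW1516, and 2 of the tested genes in the last. Its type I medians were 0.0543 for GW1516 against DMSO and -0.0845 between the agonists. At a detection p below 0.01, 28 listed genes were detected with DMSO, 27 with KD3010 and 29 with GW1516.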
